A study of Mus musculus with 6 samples.

Results

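Matrix metalloproteinases are zinc-dependent proteases that cut collagens, elastin and other matrix proteins outside the cell. Most are made as inactive proenzymes, are activated by other proteases and are held in check by the tissue inhibitors of metalloproteinases (TIMPs). In the aorta, smooth muscle cells, adventitial fibroblasts, macrophages and neutrophils each make their own set of them, and loss of elastin and collagen under their action is a known feature of aneurysms.

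The 10 genes described here were chosen by symbol, with earlier results of these data known. They are the gelatinases Mmp2 and Mmp9, the elastase Mmp12, and the stromelysins Mmp3, Mmp10 and Mmp11. The collagenase Mmp13, the membrane-type enzyme Mmp14, and Mmp19 and Mmp23 complete the list. All 10 had a row among the 18749 gene rows of the count files. A total of 9 passed the filter on low counts that left 14466 genes, and Mmp10 did not.

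The tissue was aorta of Apoe-/- mice, which lack apolipoprotein E, after 28 days of angiotensin II infusion. In 3 libraries the mice had received Apoe-/-Sept2C111A bone marrow (Sept2C111A recipients), and in 3 they had received Apoe-/- bone marrow (control recipients). Host, donor and infusion thus shared the Apoe-/- background and angiotensin II in both groups, and by its name the altered septin-2 has a cysteine exchanged for alanine. The wall cells of a marrow recipient remain those of the host, while age, sex, strain and the share of blood cells of donor origin were not stated. The question was how metalloproteinase transcripts differ in the aneurysm-prone aorta when the transplanted marrow bears the septin-2 exchange.

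Library totals ran from 17082719 to 18736010 expected counts in Sept2C111A recipients and from 18472362 to 20494928 in control recipients. Levels are given as CPM, the count scaled to the library total after TMM scaling, of which 1 stood for 17.9 to 20.2 counts. Smooth muscle markers of the aortic wall were abundant, with Acta2, the smooth muscle actin, at 5716 to 9173 CPM in Sept2C111A recipients and 2610 to 7393 CPM in control recipients. Summed over 9 markers, smooth muscle ran from 16517 to 24521 CPM in Sept2C111A recipients and from 6096 to 19330 CPM in control recipients, where control 3 was lowest. The 12 neutrophil markers summed to 17.2 to 29.8 CPM in Sept2C111A recipients, against 3222, 94.4 and 347 CPM in controls 1, 2 and 3. The 13 macrophage markers summed to 1938 to 2896 CPM in Sept2C111A recipients and to 3051 to 4053 CPM in control recipients. Adventitial fibroblast markers ran from 7351 to 9079 CPM in Sept2C111A recipients and from 4257 to 5182 CPM in control recipients, with endothelial markers at 681 to 1567 CPM in Sept2C111A recipients and 774 to 1476 CPM in control recipients. Adipocyte markers ran from 1824 to 4209 CPM in Sept2C111A recipients and from 788 to 2895 CPM in control recipients. Erythroid markers ran from 202 to 708 CPM in Sept2C111A recipients and stood at 1683, 70.6 and 1107 CPM in controls 1, 2 and 3. T cell markers ran from 3.16 to 9.14 CPM in Sept2C111A recipients and from 4.59 to 8.30 CPM in control recipients. B cell markers ran from 2.92 to 24.3 CPM in Sept2C111A recipients and from 8.47 to 30.06 CPM in control recipients. Controls 1 and 3 stood apart from the other libraries in different ways, control 1 by neutrophil genes and control 3 by little smooth muscle. Both were also higher in erythroid markers than every other library. Values are given below for each library. In bulk tissue, fewer cells of a type and less RNA per cell cannot be told apart.

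Mmp9 was far lower in Sept2C111A recipients, and of the 9 tested members it had the largest fold change. Mmp3, Mmp12 and Mmp23 had higher means in Sept2C111A recipients, and Mmp2, Mmp11, Mmp13, Mmp14 and Mmp19 had lower ones, each with overlapping groups. By edgeR's quasi-likelihood test, adjusted over all 14466 genes, 0 of the 9 tested members passed, as did 0 genes in all (0% higher and 0% lower). At an unadjusted p under 0.05, edgeR counted 2 members, Mmp9 and Mmp19, both lower, against 8.83% of all tested genes lower, 6.17% higher and 15% in either direction. DESeq2 called 1 member, Mmp9, against 2.89% of genes lower, 0.985% higher and 3.87% in either direction in its own test. Fitted levels were lower for 6 of the 9 and for 49.9% of all tested genes. The log2 fold changes of the 9 had a median of -0.62, and those of all tested genes one of 0.00. These shares and this median over all genes are also the ones to set beside the counts of each marker and gene list below. The labels give 3 samples a group and do not say whether each is 1 animal or a pool. The p-values thus set each group difference against the spread between these libraries.

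**Figure D1:**
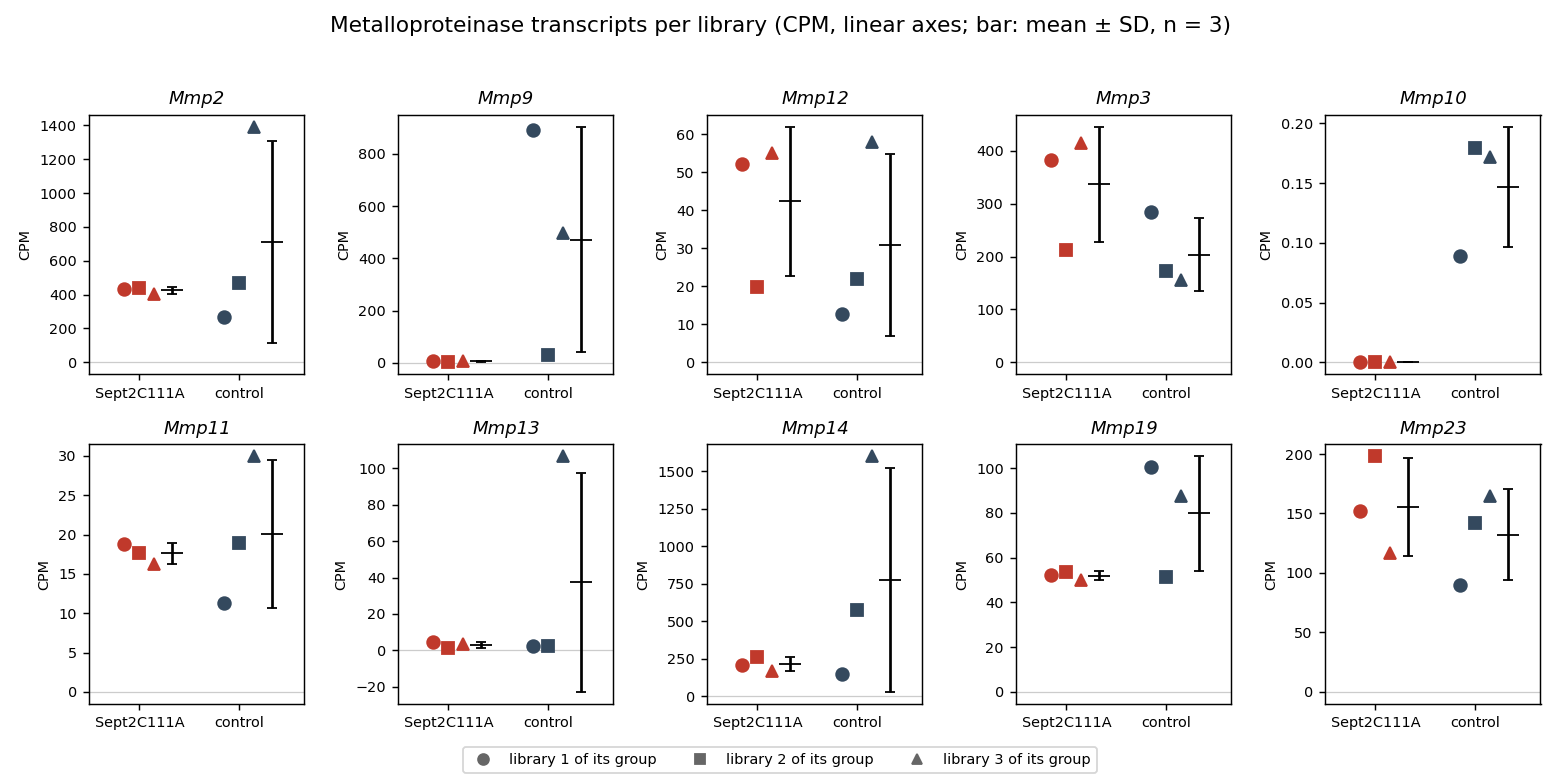
Level of each metalloproteinase gene in CPM on linear axes, with Sept2C111A recipients left and control recipients right. Symbols mark libraries 1, 2 and 3 of a group and black bars the mean ± SD (n = 3), whose lower end falls below 0 for Mmp13 since a single library, control 3 at 106.7 CPM, holds nearly all its signal. Mmp9 is the only one of the 9 tested members whose groups do not overlap.

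The gelatinases cut denatured collagen, collagen IV and elastin. Mmp9, the gelatinase made mainly by neutrophils and macrophages (chromosome 2, 164940780 to 164955850, mm10), had 5.25, 1.66 and 8.01 CPM in the Sept2C111A recipients, against 892, 28.03 and 496 CPM in the control recipients. Every control exceeded every Sept2C111A library, and the lowest control was 3.50-fold above the highest Sept2C111A library, while the controls themselves spanned 31.8-fold. Mmp9 was the 1 member of 9 whose groups lay apart, where 11.9% of all tested genes did so in this direction, 11.2% in the other and 23.1% in either. The means were 4.97 ± 3.19 CPM in Sept2C111A recipients and 472 ± 432 CPM in control recipients (SD, n = 3 each). The log2 fold change was -6.57 (SE 1.38), with an edgeR adjusted p of 0.316 and a DESeq2 adjusted p of 2.83e-08. Without control 1 it was -5.70 and without control 2 it was -7.12, and DESeq2 called the gene whichever of the 6 libraries was dropped. With controls 1 and 3 both left out, the single remaining control gave -2.49 by edgeR (adjusted p = 0.925) and a DESeq2 adjusted p of 0.286.

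Mmp9 had the same order as the summed neutrophil markers among the controls, but not in proportion. Controls 1 and 3 had 892 and 496 CPM of Mmp9, against 3222 and 347 CPM of neutrophil markers. Among Sept2C111A libraries, Mmp9 was highest in library 3 and the neutrophil sum was highest in library 1. The granule protein gene S100a8 stood at 3.05, 0.995 and 1.45 CPM in Sept2C111A recipients and at 650.4, 12.8 and 105 CPM in control recipients, and the neutrophil surface gene Ly6g had no read in any Sept2C111A library or in control 2. All 7 tested markers of the 12 on the neutrophil list had lower fitted levels with groups that did not overlap. DESeq2 called 6 of them and edgeR 0 after adjustment (7 at an unadjusted p under 0.05). Per unit of the summed neutrophil level, Mmp9 stood at 0.176, 0.0962 and 0.371 in Sept2C111A recipients and at 0.277, 0.297 and 1.43 in control recipients, so the groups overlapped on that scale. Per unit of the macrophage sum the ratio was 0.00181, 0.000799 and 0.00413 in Sept2C111A recipients and 0.274, 0.00919 and 0.122 in control recipients, with the groups apart. Of the 13 macrophage markers 10 had lower fitted levels and DESeq2 called 1. Some, such as Lyz2, the lysozyme, overlapped between the groups, at 773 to 1313 CPM in Sept2C111A recipients and 840 to 2045 CPM in control recipients. The macrophage markers went different ways in control 1. As log2 CPM minus the gene's mean of the 6 libraries, Itgam, Cd14 and Fcgr1 stood there at 3.25, 3.06 and 1.41. Ms4a7, C1qa, C1qb, Mertk, Adgre1 and Csf1r stood at -1.38, -1.01, -1.01, -0.69, -0.44 and -0.42, each the lowest of the 6 libraries. Cd68 and Cd163 stood at 0.16 and 0.34, and Lyz2 and Mrc1 at -0.43 and -0.12. Erythroid markers had the same order as Mmp9 among the controls, at 1683, 70.6 and 1107 CPM in controls 1, 2 and 3. They ran from 202 to 708 CPM in Sept2C111A recipients, above control 2. The part of these cell types in the Mmp9 difference was not tested.

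**Figure D2:**
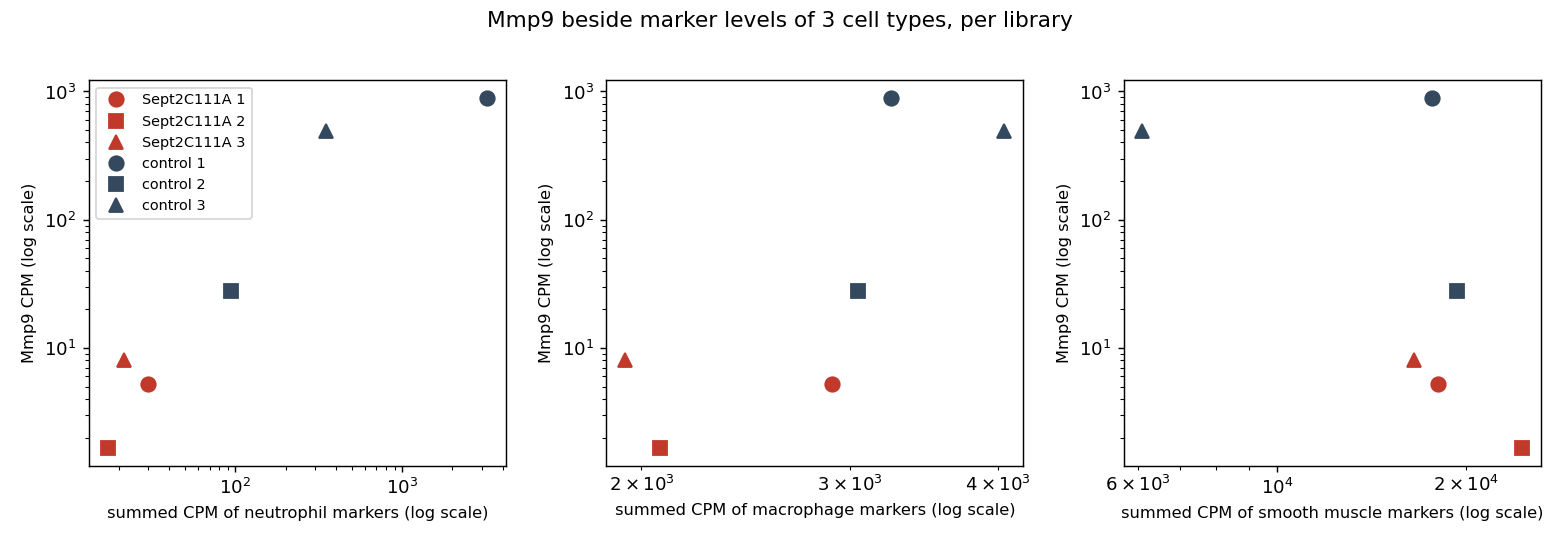
Mmp9 in CPM (vertical, log scale) against the summed CPM of neutrophil, macrophage and smooth muscle markers (horizontal, log scales) in each of the 6 libraries. Controls 1 and 3, at 892 and 496 CPM of Mmp9, sit at 3222 and 347 CPM of neutrophil markers, and the Sept2C111A recipients sit at the low end of both.

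Mmp2, the gelatinase made by smooth muscle cells and fibroblasts (chromosome 8, 92827291 to 92853420), had 432, 441 and 402 CPM in Sept2C111A recipients, against 271, 470.1 and 1393 CPM in control recipients. The Sept2C111A libraries were nearly equal, and the controls lay on both sides of them. The log2 fold change of -0.74 (SE 0.58, adjusted p = 0.529 by edgeR) became 0.20 without control 3. The balance of the gelatinases, as Mmp9 over Mmp2 in CPM per kilobase of transcript, was 0.0118, 0.00364 and 0.0193 in Sept2C111A recipients and 3.19, 0.0578 and 0.345 in control recipients. Mmp9 thus outweighed Mmp2 in control 1 alone.

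Mmp14 is a membrane-bound enzyme that activates the Mmp2 proenzyme at the cell surface with the help of Timp2, and it also cuts fibrillar collagen. Mmp14 (chromosome 14, 54431612 to 54445364) had 212, 265 and 169 CPM in Sept2C111A recipients, against 152, 573 and 1599.99 CPM in control recipients. Controls 2 and 3 lay above every Sept2C111A library and control 1 lay below every one. The log2 fold change was -1.85 (SE 0.78), with an edgeR adjusted p of 0.338 and a DESeq2 adjusted p of 0.122. It was -0.75 without control 3 and -2.32 without control 1 (edgeR adjusted p = 0.383). Of the fits with 1 library left out, DESeq2 called Mmp14 only in the one without control 1, with an adjusted p of 5.32e-04. With controls 1 and 3 both left out, the single remaining control gave -1.41 by edgeR and -1.42 by DESeq2. Control 3, the library highest in Mmp14 and Mmp2, was the lowest in smooth muscle markers, and the part of that difference was not tested. Timp2, which also inhibits these enzymes, had 1696, 1484 and 1430.1 CPM in Sept2C111A recipients and 667, 1299 and 1464 CPM in control recipients.

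Mmp12 and Mmp3 had higher means in Sept2C111A recipients, and neither passed a test with all libraries. Mmp12, the elastase of macrophages (chromosome 9, 7344381 to 7369499), had 52.3, 19.7 and 55.1 CPM in Sept2C111A recipients, against 12.8, 21.8 and 58.05 CPM in control recipients. Each group held both low and high libraries, and the log2 fold change of 0.45 (SE 0.63, adjusted p = 0.726 by edgeR) was 1.29 without control 3 and 0.10 without control 1. Mmp3, stromelysin-1, which cuts proteoglycans and activates other proenzymes (chromosome 9, 7445822 to 7455975), had 383, 212 and 415 CPM in Sept2C111A recipients, against 284, 173 and 155 CPM in control recipients. Libraries 1 and 3 of the Sept2C111A recipients lay above all controls and library 2 lay below control 1. Its log2 fold change was 0.72 (SE 0.34, edgeR adjusted p = 0.362, DESeq2 adjusted p = 0.26), and it ran from 0.56 to 1.04 with 1 library left out. Of the 9 adventitial fibroblast markers, 9 had higher fitted levels in Sept2C111A recipients and DESeq2 called 4, and their part in the Mmp3 values was not tested. Mmp3 was also the 1 tested member whose SD of log2 CPM was not larger among controls, at 0.53 in Sept2C111A recipients and 0.47 in control recipients.

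Mmp11, stromelysin-3, which furin activates inside the cell (chromosome 10, 75923222 to 75936496), had 18.9, 17.6 and 16.3 CPM in Sept2C111A recipients, against 11.3, 18.98 and 29.97 CPM in control recipients. The Sept2C111A libraries sat close together inside the span of the controls. Its log2 fold change was -0.19 (SE 0.34, edgeR adjusted p = 0.791) and turned to 0.22 without control 3. Exons of Mmp11 overlap those of Chchd10 on the other strand, and with no strand setting stated their reads may be mixed. Mmp10, stromelysin-2 (chromosome 9, 7502352 to 7510240), had no read in any Sept2C111A library and 1.59, 3.42 and 3.48 expected counts in the control libraries. A count of 0 allows up to 3 counts a library, or 0.158 to 0.167 CPM in the Sept2C111A libraries. Control 1 lay under these limits and controls 2 and 3 lay just above them, at 0.18 and 0.172 CPM, and the summed counts were 0 in Sept2C111A recipients and 8.49 in control recipients. The gene was too low to be tested. Such limits cover counting error only.

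Mmp13, the main interstitial collagenase of the mouse (chromosome 9, 7272514 to 7283331), had 4.62, 1.05 and 3.39 CPM in Sept2C111A recipients, against 2.57, 2.63 and 106.7 CPM in control recipients. Control 3 alone was high, and controls 1 and 2 lay within the range of the Sept2C111A libraries. The log2 fold change of -3.62 (SE 1.60, adjusted p = 0.349 by edgeR) was 0.22 without control 3, and DESeq2 gave no p for it with all libraries. Without control 2, DESeq2 called it (log2 fold change -4.19, adjusted p = 0.0109), a fit in which control 3 is 1 of 2 controls.

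Mmp19, a secreted enzyme that cuts basement membrane proteins (chromosome 10, 128790910 to 128800824), had 52.1, 53.7 and 49.8 CPM in Sept2C111A recipients, against 100.6, 51.2 and 87.4 CPM in control recipients. Controls 1 and 3 lay above every Sept2C111A library and control 2 lay among them. The log2 fold change was -0.62 (SE 0.25, edgeR adjusted p = 0.331, DESeq2 adjusted p = 0.221). Without control 2, DESeq2 gave -0.86 and called it with an adjusted p of 3.32e-06. With controls 1 and 3 both left out, edgeR gave a log2 fold change of 0.02. Its exons overlap those of Tmem198b on the other strand. Mmp23, an enzyme anchored near its amino end that lacks the haemopexin domain (chromosome 4, 155650655 to 155653384), had 152, 198 and 116 CPM in Sept2C111A recipients and 90.3, 142 and 164 CPM in control recipients, overlapping groups whose log2 fold change was 0.23 (SE 0.29) at an edgeR adjusted p of 0.689.

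**Figure D3:**
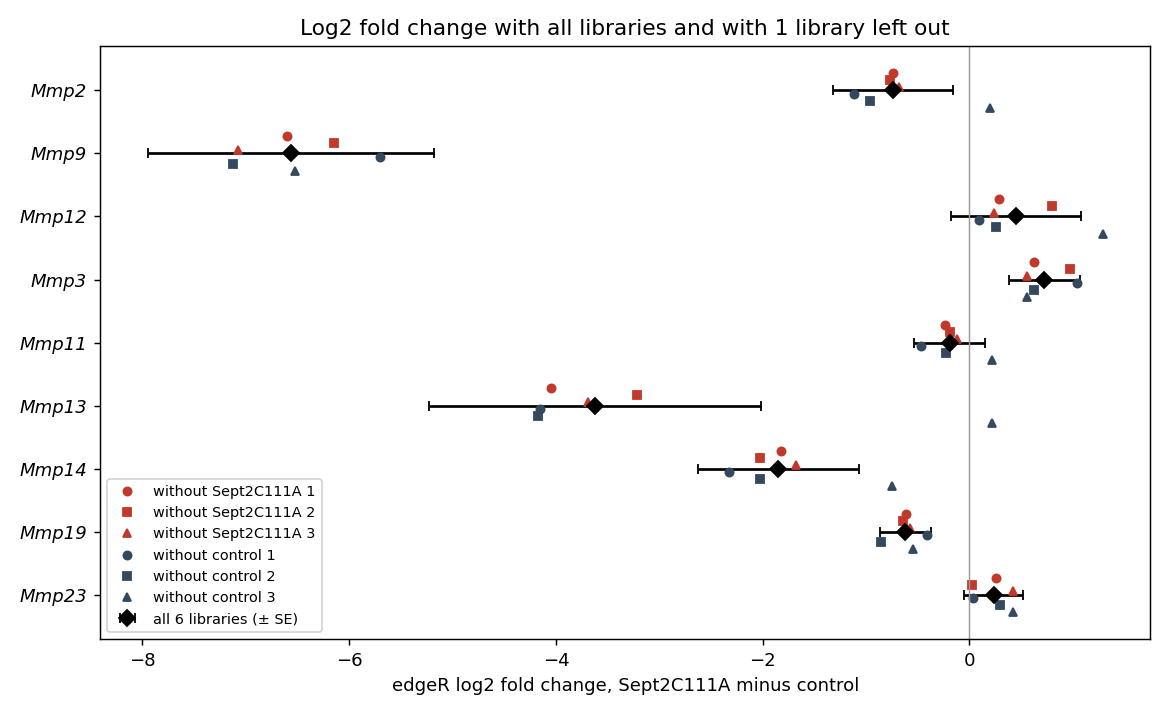
Log2 fold change of the 9 tested members (Sept2C111A minus control) from edgeR, with all libraries (black, ± SE) and with each library left out in turn (red for Sept2C111A, blue-grey for control). Leaving out control 3 moved Mmp2, Mmp11 and Mmp13 to the other side of 0, while Mmp9 stayed between -7.12 and -5.70.

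Most members varied more among controls than among Sept2C111A recipients. The SD of log2 CPM was larger in control recipients for 8 of the 9 tested members, against 69.9% of all tested genes. It was 0.07 in Sept2C111A recipients and 1.20 in control recipients for Mmp2, and for Mmp14 it was 0.32 in Sept2C111A recipients and 1.70 in control recipients. Mmp19 had 0.05 in Sept2C111A recipients and 0.51 in control recipients, and Mmp11 had 0.10 in Sept2C111A recipients and 0.70 in control recipients. Over all genes the median SD was 0.19 in Sept2C111A recipients and 0.30 in control recipients. Control 3 held the highest level of Mmp2, Mmp11, Mmp12, Mmp13 and Mmp14, 5 of the 9, where it was the highest library for 24.8% of all tested genes. Control 1 was highest for Mmp9 and Mmp19.

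Scaled to the length of the principal transcript, the 10 genes together reached 582, 531 and 548 CPM per kilobase in Sept2C111A recipients and 687, 608 and 1520.4 in control recipients. Mmp3, Mmp2, Mmp23 and Mmp14 led in Sept2C111A recipients, at 187 ± 60.6, 138 ± 6.74, 108 ± 28.6 and 83.0 ± 18.5 CPM per kilobase (SD, n = 3), and each overlapped the next in range. Mmp14, Mmp2, Mmp9, Mmp3 and Mmp23 led in control recipients, at 299 ± 287, 231 ± 194, 149 ± 136, 113 ± 38.8 and 92.2 ± 26.5, and again each overlapped the next. Mmp19 came next in both groups, at 15.2 ± 0.578 and 23.4 ± 7.52 CPM per kilobase in Sept2C111A and control recipients. Its range lay below those of all genes ranked above it in Sept2C111A recipients, and in control recipients it lay below that of Mmp23, the next gene up, but inside that of Mmp9. Mmp12, Mmp11, Mmp9 and Mmp13 stood lower in Sept2C111A recipients, at 11.7, 7.69, 1.57 and 1.13 CPM per kilobase on average, with Mmp11 apart from Mmp9 and the other neighbours overlapping. Mmp13, Mmp11 and Mmp12 stood lower in control recipients, at 13.96 ± 22.5, 8.78 ± 4.09 and 8.57 ± 6.64, with overlapping ranges. The Mmp13 mean rested on control 3 at 39.9 CPM per kilobase. In controls 1 and 2 Mmp13 stood at 0.961 and 0.984, below both Mmp11 and Mmp12.

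As a share of this length-scaled sum, Mmp3 made up 36.5%, 22.1% and 42.0% in Sept2C111A recipients, against 22.9%, 15.8% and 5.65% in control recipients. Mmp14 made up 14.0%, 19.2% and 11.9% in Sept2C111A recipients, against 8.54%, 36.3% and 40.5% in control recipients. Mmp9 made up 0.284%, 0.0983% and 0.460% in Sept2C111A recipients, and 40.9%, 1.45% and 10.3% in control recipients. The leading gene was Mmp3, Mmp2 and Mmp3 in the Sept2C111A libraries and Mmp9, Mmp14 and Mmp14 in the control libraries. On this scale no control library shared its leader with a Sept2C111A library. Mmp2 and Mmp23 were close in Sept2C111A library 2, at 27.0% and 26.0%. The leaders depended on the length used. With the length of all exons in place of the principal transcript Mmp2, not Mmp14, had the highest mean in control recipients. Mmp2 then led in controls 2 and 3 and also in Sept2C111A library 2.

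**Figure D4:**
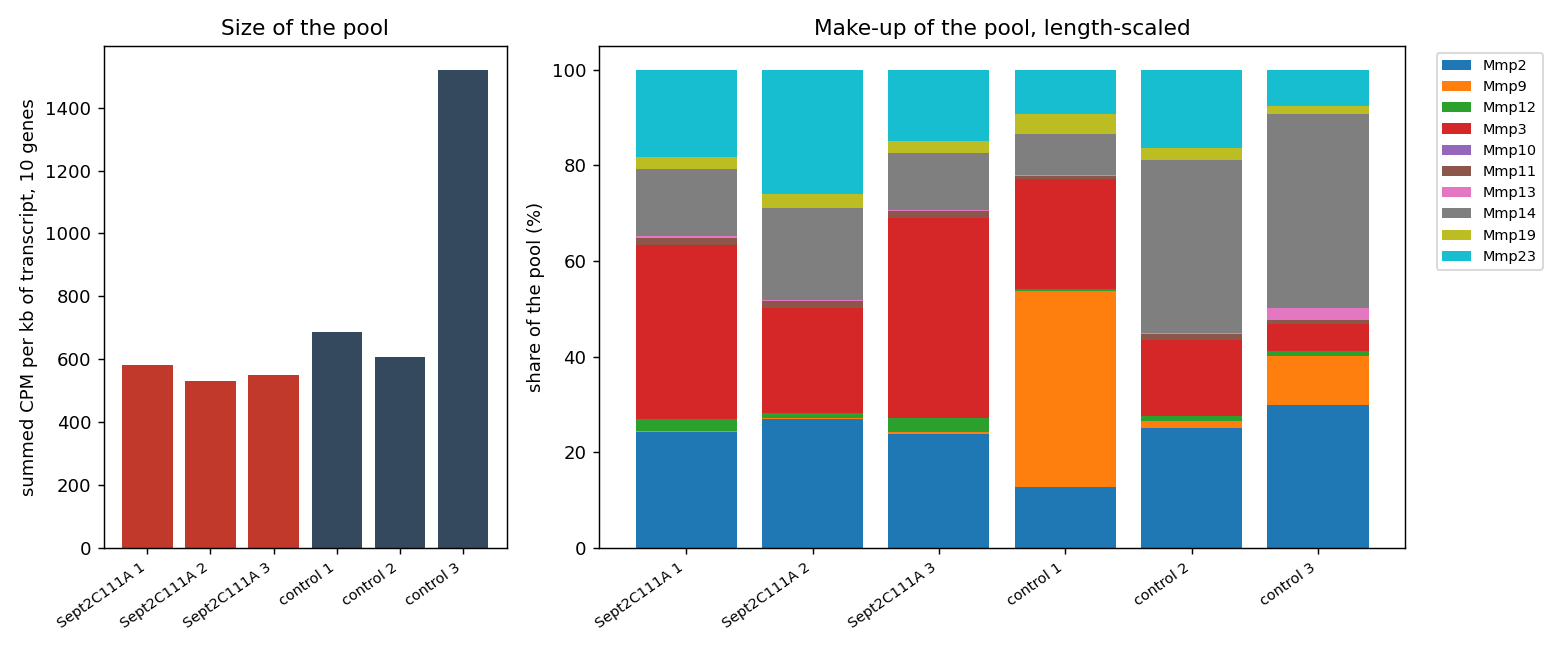
Left, summed level of the 10 metalloproteinase genes in CPM per kilobase of principal transcript, per library, with Sept2C111A recipients in red and control recipients in blue-grey. Right, share of that sum held by each gene; Mmp9 holds 40.9% in control 1 and at most 0.460% in a Sept2C111A library.

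Mmp13, Mmp12, Mmp3 and Mmp10 lie in this order within 238 kb of chromosome 9, all on the plus strand. The AP-1 motif, bound by Fos and Jun proteins and known from the promoters of inducible metalloproteinases, was looked for in RefSeq promoter windows (build GRCm38.p6) from 250 bases before to 50 bases after each start. Of the 10 members 7 matched, with 9 windows. Mmp2, Mmp9 and Mmp19 were not among them. The letters TGACTCA or their reverse TGAGTCA were present in 4 of the 9 windows, those of Mmp3, Mmp10, Mmp13 and the second start of Mmp12, and in 5.2% of all 32851 windows. They began 46, 63, 35 and 44 bases before the start. TATAAA or its reverse TTTATA was present in the same 4 windows, and in 13.6% of all. It began 7, 29 and 16 bases before the start for Mmp3, Mmp10 and Mmp13. For Mmp12 it began 4 bases after the second start. The GC box GGGCGG or its reverse CCGCCC was present in windows of Mmp11, Mmp14 and Mmp23 and in none of the 4, against 35.7% of all windows. The PEA3 motif AGGAAG or its reverse CTTCCT was present in 4 of the 9 windows, against 35.4% of all windows. Those were windows of Mmp3, Mmp13, Mmp14 and the first start of Mmp12, where the AP-1 and TATA letters were absent. No motif overlapped another kind. The 80 bases before the start are shown for the chromosome 9 genes with the AP-1 letters and for the GC box genes Mmp14 and Mmp11, with AP-1 and GC box letters in capitals, 5′ to 3′ on the strand of the gene.
Mmp13 (chr9:7272434-7272513, plus): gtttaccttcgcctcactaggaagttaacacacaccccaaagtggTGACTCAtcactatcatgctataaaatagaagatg
Mmp12, second start (chr9:7347294-7347373, plus): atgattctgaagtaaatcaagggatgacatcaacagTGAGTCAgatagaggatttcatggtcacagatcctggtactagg
Mmp3 (chr9:7445742-7445821, plus): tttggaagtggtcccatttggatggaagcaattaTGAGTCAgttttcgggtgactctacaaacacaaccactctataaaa
Mmp10 (chr9:7502262-7502341, plus): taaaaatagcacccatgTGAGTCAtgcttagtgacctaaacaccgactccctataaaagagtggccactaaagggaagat
Mmp14 (chr14:54431518-54431597, plus): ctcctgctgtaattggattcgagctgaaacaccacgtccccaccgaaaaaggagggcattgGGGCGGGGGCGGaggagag
Mmp11 (chr10:75932503-75932582, minus): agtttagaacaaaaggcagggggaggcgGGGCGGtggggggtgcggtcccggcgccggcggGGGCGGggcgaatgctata

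The neighbours on chromosome 9 differed in their pattern over the libraries. Likeness was measured as the root mean square difference of log2 CPM, each gene centred on its own mean of the 6 libraries, where 0 means the same pattern. It was 0.90 between Mmp12 and Mmp3, 1.70 between Mmp12 and Mmp13 and 2.34 between Mmp3 and Mmp13. The closest pairs of members were Mmp11 with Mmp23 at 0.30, Mmp2 with Mmp11 at 0.35 and Mmp2 with Mmp14 at 0.59. Mmp9 was 2.76 from Mmp13 and farther from each of the others. This measure is not scaled to a gene's own spread, so genes that vary little lie near most others. For tested genes that are no member, the median distance was 0.47 from Mmp23, 0.51 from Mmp11, 0.52 from Mmp19 and 0.60 from Mmp3. It was 0.79 from Mmp2, 0.90 from Mmp12, 1.24 from Mmp14, 2.09 from Mmp13 and 3.35 from Mmp9.

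Among all tested genes, those nearest to Mmp9 were Cxcl5, a chemokine that draws neutrophils, at 0.74, and the calprotectin genes S100a8 and S100a9 at 0.76 and 0.89. Nearest to Mmp13 were Dcstamp, a membrane protein of osteoclast fusion, at 0.66, Aqp2, a water channel, at 0.84, and Hs6st2, a heparan sulfate sulfotransferase, at 0.89. Nearest to Mmp14 were Adamts7, a secreted protease, at 0.26, Vash2, a vasohibin, at 0.28, and Acan, the proteoglycan aggrecan, at 0.30. Nearest to Mmp12 were Ushbp1, the homeobox gene Hoxc5 and Cldn5, an endothelial tight junction protein, at 0.14, 0.17 and 0.17. Nearest to Mmp2 were Lpar4, a lysophosphatidic acid receptor, Slc26a8 and Mfap2, a microfibril protein, at 0.14, 0.15 and 0.15. The likeness is a description over 6 libraries that share their groups.

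Of the 13 other metalloproteinase genes listed, 11 had a row and 8 were tested. Of these 5 had higher and 3 lower fitted levels (median 0.19 in log2), and edgeR passed 0 after adjustment (3 at an unadjusted p under 0.05). DESeq2 called 2, both lower. Mmp8, the neutrophil collagenase, had 0.473, 0.442 and 0.334 CPM in Sept2C111A recipients and 8.82, 0.578 and 4.75 CPM in control recipients, a log2 fold change of -3.48 (DESeq2 adjusted p = 0.00991). Mmp25, a leukocyte enzyme held by a lipid anchor, had 0.968, 0.394 and 0.903 CPM in Sept2C111A recipients and 34.5, 1.01 and 2.56 CPM in control recipients (log2 fold change -4.08, DESeq2 adjusted p = 0.0156). Both followed Mmp9 in being highest in control 1 and lowest among controls in control 2. Control 2 lay only just above the Sept2C111A libraries, at low counts. It had 11 counts of Mmp8 against 9, 8 and 6, and 19 of Mmp25 against 18, 7 and 16. Mmp28, epilysin, had 19.2, 14.6 and 14.4 CPM in Sept2C111A recipients and 10.4, 10.06 and 11.3 CPM in control recipients, a log2 fold change of 0.61 (DESeq2 adjusted p = 0.074). Its groups did not overlap.

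Among the 5 inhibitors, edgeR passed 0 (1 higher and 1 lower at an unadjusted p under 0.05), DESeq2 called Timp1 lower and Timp4 higher, and the median of the 5 was 0.43 in log2. Timp4, an inhibitor known from heart and vessels, had 14.4, 9.12 and 20.3 CPM in Sept2C111A recipients and 5.36, 6.73 and 6.23 CPM in control recipients (DESeq2 adjusted p = 0.0195). Timp1, the inhibitor that binds the Mmp9 proenzyme, had 95.6, 158 and 51.3 CPM in Sept2C111A recipients and 749.7, 184 and 494 CPM in control recipients (DESeq2 adjusted p = 0.00991), so it followed the order of Mmp9 among the controls.

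Activators and cell surface partners were tested for 11 of 12 genes, of which 9 had lower fitted levels, with a median of -0.88 and of -0.24 without control 1. EdgeR passed 0 of them (1 higher and 3 lower at an unadjusted p under 0.05), and DESeq2 called 1 higher and 1 lower. Pcsk6, a proprotein convertase, had 94.9, 88.4 and 119.9 CPM in Sept2C111A recipients and 34.3, 62.1 and 39.9 CPM in control recipients, with a DESeq2 adjusted p of 0.00792. Plaur, the urokinase receptor, had 14.2, 28.6 and 14.2 CPM in Sept2C111A recipients and 223, 31.02 and 57.6 CPM in control recipients (DESeq2 adjusted p = 0.0222). Furin, the convertase that activates Mmp11 and Mmp14, had 112, 127 and 105 CPM in Sept2C111A recipients and 301, 133 and 198 CPM in control recipients (DESeq2 adjusted p = 0.11).

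Matrix substrates had lower fitted levels for 12 of 12 genes, with a median of -0.86. EdgeR passed 0 (2 lower at an unadjusted p under 0.05) and DESeq2 called 1. That gene was Spp1, osteopontin, at 118, 74.7 and 87.9 CPM in Sept2C111A recipients and 254, 419 and 1390.4 CPM in control recipients. The median was -0.34 without control 3. Vcan, the proteoglycan versican, had 91.0, 178 and 93.3 CPM in Sept2C111A recipients and 293, 196 and 236 CPM in control recipients, and Acan had a log2 fold change of -1.29. Of 18 inducing cytokines and transcription factors, 14 had lower fitted levels, with a median of -0.75 that was -0.15 without control 1. EdgeR passed 0 (1 higher and 4 lower at an unadjusted p under 0.05), and DESeq2 called Runx2, a transcription factor known to drive Mmp13 in bone, at 4.42, 6.85 and 6.11 CPM in Sept2C111A recipients and 24.7, 11.5 and 23.5 CPM in control recipients. Il1b, the cytokine interleukin-1 beta, had 9.25, 3.76 and 3.62 CPM in Sept2C111A recipients and 398, 26.8 and 30.6 CPM in control recipients. Osm, oncostatin M, had 1.26, 1.60 and 0.834 CPM in Sept2C111A recipients and 204, 4.63 and 6.28 CPM in control recipients. Both cytokines were above every Sept2C111A library in all 3 controls and by far highest in control 1, and DESeq2 withheld their adjusted p.

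**Figure D5:**
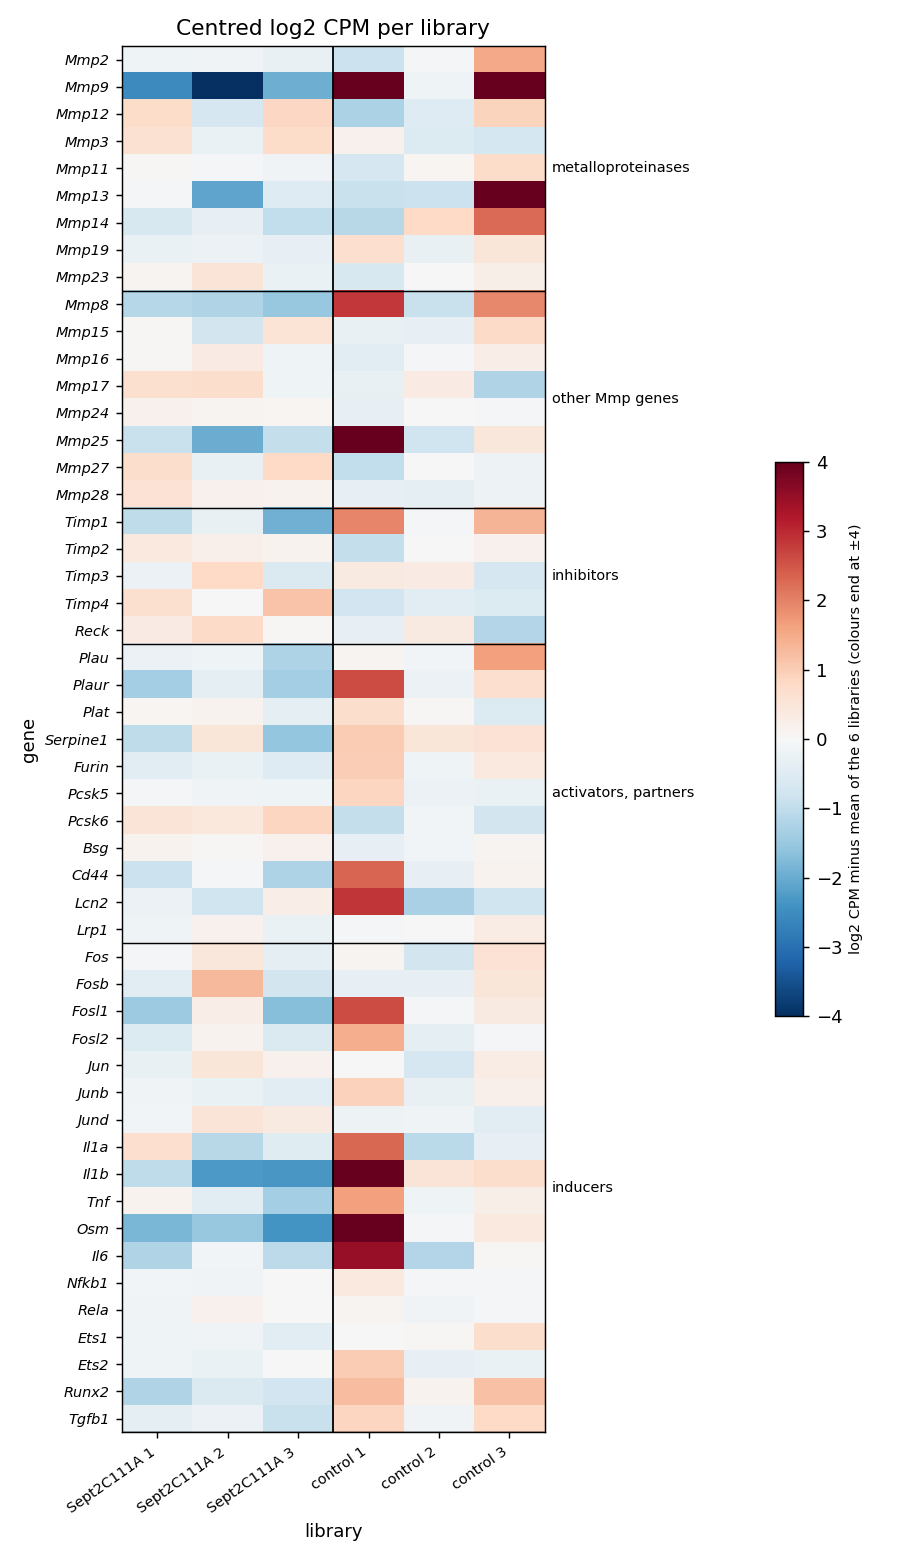
Log2 CPM of each tested gene minus its mean over the 6 libraries, with Sept2C111A libraries left and control libraries right and gene groups marked at the side (colours end at ±4). Mmp9, Mmp8, Mmp25, Osm and Il1b are highest in control 1, while Mmp2, Mmp13 and Mmp14 are highest in control 3.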

How the data were processed

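RSEM's expected counts per gene were deposited, with 1 file per library and no normalisation by the authors. RSEM 1.3.1, Bowtie2, mm10 and DESeq2 1.4.5 appear in the submitters' processing notes. Annotation, read filters and strand setting are not stated. Because RSEM shares reads that match several transcripts, 34.6% to 35.9% of values per library were fractional. Poly(A) RNA was sequenced, per the labels' protocols. The header of a Sept2C111A file names a different library from the sample under which GEO holds it, and GEO's sample was used.

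Expected counts were rounded and analysed in R 4.3.3. Genes were kept by filterByExpr (minimum count 10), scaled by TMM and tested with edgeR 4.0.16 (two-sided quasi-likelihood F test, group as the single factor, Benjamini-Hochberg adjustment, threshold 0.05). Each SE is the size of the log2 fold change over the root of F. DESeq2 1.42.0 and limma 3.58.1 (voom) were alternatives. Levels are CPM on TMM-scaled totals, and log2 CPM adds a prior count of 2. The tests were tried on simulated counts. Chi-square per degree of freedom between replicates was 52.6 to 249, so no library was a duplicate.

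Coordinates (1-based) and transcript lengths are from GENCODE vM21. Lengths are those of the longest principal transcript. The members and gene lists were chosen with earlier results of these data known. All members are named, with the 3 nearest genes of the 5 most variable ones. Of the lists, members called by DESeq2 or the 3 of smallest p are named, with the metalloproteinase and inhibitor genes as needed and the most abundant markers. Ly6g and the macrophage markers other than the most abundant were named after their values were seen.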

Additional observations from a re-analysis of the deposited data

How the results depend on the processing

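With edgeR and limma-voom, 0 genes passed after adjustment under every setting tried, with 530 to 3017 at an unadjusted p under 0.05. DESeq2 called 570 genes with all libraries. With 1 library left out it called 241, 650 and 116 without Sept2C111A libraries 1, 2 and 3, and 330, 1767 and 339 without controls 1, 2 and 3. With controls 1 and 3 both left out, an alternative chosen after seeing the data, it called 28, in a fit whose spread comes from the Sept2C111A libraries alone. The signs of Mmp3, Mmp9, Mmp12, Mmp14 and Mmp23 held in all 22 alternatives, which share libraries. The log2 fold change fell as low as 0.0792 for Mmp12 and 0.00986 for Mmp23. Leaving out single libraries, edgeR's log2 fold change ran from -1.12 to 0.20 for Mmp2, from -0.47 to 0.22 for Mmp11 and from -4.17 to 0.22 for Mmp13, positive without control 3, where DESeq2 gave 0.19, 0.21 and 0.21. Without controls 1 and 3 it was 0.20 for Mmp13, 0.0189 for Mmp19 and -1.41 for Mmp14 by edgeR. By DESeq2 it was 0.19, 0.0119 and -1.42. With limma-voom it was -4.65 for Mmp9 and -0.88 for Mmp13. The cause was not tested. The titles number samples 1 to 3 in each group, but deviations of same-numbered libraries correlated at 0.0055, 0.15 and -0.17, so the numbers are not taken as pairs. With the replicate number as a block, edgeR passed 0 genes, and Mmp9 had a log2 fold change of -5.89 (adjusted p = 0.383). Depth limited Mmp10 alone among the members.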
